A study of Gallus gallus with 8 samples.

Results

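Otx2-only regions are stretches of the chick genome where a peak of the transcription factor Otx2 was called at both digestion times of a CUT&RUN experiment and no peak of the transcription factor Oc1 was called at either time. They were found by joining the peaks of 4 lists wherever these overlapped by at least 1 base, leaving out the mitochondrial chromosome. Of 22265 joined regions, 2580 (11.6%) met this rule, and of the 5979 regions with Otx2 at both times they made up 43.2%. The regions were thus chosen by the Otx2 and Oc1 peak calls, that is by read enrichment in these same libraries. That share and the peak strengths below therefore describe the set and are not tested.

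CUT&RUN tethers a nuclease to an antibody on chromatin and sequences the fragments that it releases. The samples were wild-type chick retinas at E5, dissociated to single cells, and no group carried any other treatment or allele. Otx2 digested for 25 min, Otx2 digested for 30 min, Oc1 digested for 25 min and Oc1 digested for 30 min each gave 1 library. Of 8 samples, the 4 with an H3K27me3 or IgG antibody were not analysed here. No library has a replicate, and a peak could be looked for again only at the other digestion time. All intervals below are 95% intervals that cover counting error over regions and not the spread between preparations, and no p-value was computed. They count each region as independent, which regions close to each other may not be.

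Otx2 is a paired-type homeodomain protein that retinal precursors need to become photoreceptors and bipolar cells, and it also acts in the pigment epithelium. Oc1 (Onecut1) is a cut-homeodomain protein of horizontal and ganglion cells and of early precursors. Both proteins occur together in progenitors that give rise to cones and horizontal cells, and the study addressed their role in cone development. The retina at this age holds several cell types, so a region with Otx2 peaks alone may come from other cells than a region with both factors, and the lists neither separate cell types nor allow a check of the tissue by marker genes. Absence of Oc1 here means that no Oc1 peak was called. Oc1 read coverage over these regions was not analysed here.

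Positions are those of the lists, counted from 1, on the build galGal5 that the submitters' processing notes name. The genes and sequences at these positions were not analysed here.

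The edge of the set lies close to weak or barely overlapping Oc1 peaks. The member nearest to an Oc1 peak lay on chromosome 27 from 4371777 to 4371938, with 7 bases between it and that peak. Its Otx2 fold enrichment over local background was 5.02 at 25 min and 7.01 at 30 min. Just outside, a region on chromosome 26 from 4395943 to 4396450 had Otx2 folds of 8.30 and 7.09 and shared 2 bases with an Oc1 peak. Strength of the Oc1 call also set the edge. A region on chromosome 11 from 17942686 to 17943448, with Otx2 folds of 10.9 at 25 min and 13.9 at 30 min, was left out by a single Oc1 peak at 25 min of 4 reads and a −log10 q of 1.31. The q is the peak caller's p adjusted for the number of places tested, and a larger −log10 q is a stronger call. Of the 1101 regions with Otx2 at both times and Oc1 at 1 time, 482 (43.8%, Wilson interval 40.9 to 46.7%) had an Oc1 peak of at most 5 summit reads.

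Otx2 peaks in these regions rested on few reads, as did the Otx2 lists as a whole. Summit reads, recovered from each peak's fold and p, had a median of 7 at 25 min, with a lowest value of 3 and a highest of 65. At 30 min the median was 8, the lowest value 4 and the highest 50. Over all peaks of each Otx2 list the median was 6 at 25 min and 8 at 30 min, so low reads do not set these regions apart. The 30 min numbers are before a scaling by 0.845, a value fitted here to the deposited fold and p. At least 10 reads at both times were present in 378 of the 2580 regions (14.7%, 13.3 to 16.1%). The most common pair was 6 reads at 25 min and 6 at 30 min, found in 85 regions. At 25 min, 579 regions (22.4%, 20.9 to 24.1%) had at most 5 reads.

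**Figure D1:**
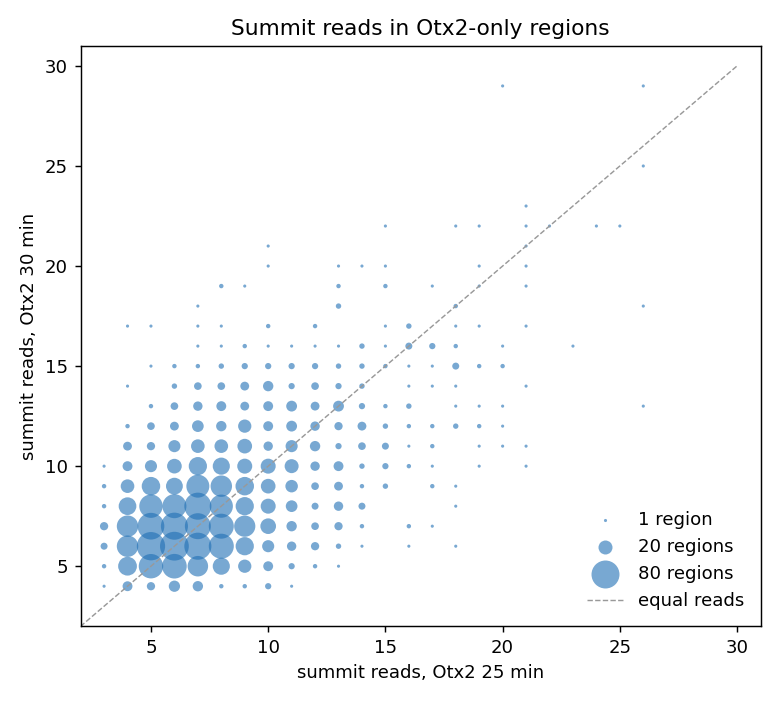
Summit reads of Otx2-only regions at 25 min (x axis) and 30 min (y axis, before scaling), with point area showing the number of regions at each pair of read numbers and the dashed line marking equal reads. Most regions sit at the low end around medians of 7 and 8 reads, and 7 regions with more than 30 reads at either time are not drawn.

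Fold enrichment covered a like range at both times. Its lowest, median and highest values were 2.15, 6.43 and 22.8 at 25 min, and 2.66, 6.24 and 19.98 at 30 min. The quartiles were 5.07 and 7.86 at 25 min, and 5.44 and 7.77 at 30 min. Fold was higher at 30 min in 1330 regions (51.6%, 49.6 to 53.5%), so by fold neither time was the stronger one across the set. By −log10 q the calls were stronger at 25 min, with a median of 6.26 (5.79 to 6.87) against 5.26 (5.26 to 5.26) at 30 min. The part of the scaling at 30 min in this was not tested. The folds of a region lay within 1.5 times of each other in 1987 regions (77.0%, 75.4 to 78.6%) and more than 2 times apart in 121 (4.69%, 3.94 to 5.58%). Across the 2580 regions, which share both libraries and a minimum strength, Spearman's rho between the folds was 0.327. In the 2298 regions of all 4 lists the Otx2 folds had a rho of 0.463, and in the 1101 regions with Oc1 at 1 time it was 0.391.

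Regions with Oc1 peaks held stronger Otx2 peaks than regions without. The median Otx2 fold at 25 min was 6.43 (interval 6.19 to 6.58) in Otx2-only regions, 6.78 (6.76 to 6.96) with Oc1 at 1 time and 7.60 (7.47 to 7.60) with Oc1 at both times. At 30 min the medians were 6.24, 7.01 and 7.09 in the same order of sets. A fold of at least 10 at both times was reached by 105 Otx2-only regions (4.07%, 3.37 to 4.90%). It was reached by 80 of the regions with Oc1 at 1 time (7.27%, 5.88 to 8.95%) and by 280 of the regions of all 4 lists (12.2%, 10.9 to 13.6%). The Otx2 peaks at 25 min also differed in width, with medians of 287, 316 and 371 bases in the same order of sets. A wider peak has more room to overlap an Oc1 peak by 1 base, and the part of width in this order was not tested.

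The 5979 regions were also ranked by the smaller of their Otx2 −log10 q values and cut into 10 bins. Fold, −log10 q and summit reads come from the same reads and background of a peak. The bins and read classes therefore restate the order above in finer steps and are no separate support for it. Otx2-only regions made up 22.7% (19.6 to 26.3%) of the strongest bin, 30.6% (27.04 to 34.4%) of the next and 38.6% (34.8 to 42.6%) of the one after. In the weakest bin they made up 50.9% (46.9 to 54.9%). The share stopped climbing in the weaker bins and lay between 44.6% and 55.02% from the fifth bin on. Regions with Oc1 at 1 time kept a nearly level share of 15.6 to 21.9%, so the bins differed mainly in regions without Oc1 and regions with Oc1 at both times. Among the 100 strongest regions, 16 were Otx2-only. By reads, 782 of 1320 regions whose smaller read number was at most 5 had no Oc1 peak (59.2%, 56.6 to 61.9%), against 64 of 351 regions with at least 15 reads (18.2%, 14.5 to 22.6%).

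**Figure D2:**
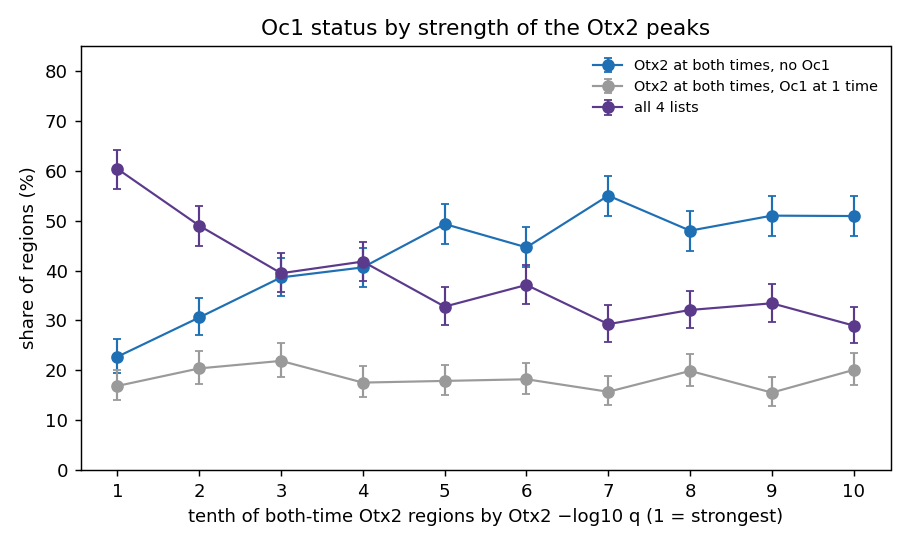
Share of regions with no Oc1 peak, with Oc1 at 1 time and in all 4 lists (y axis, percent, bars are Wilson intervals) in 10 bins of the 5979 regions with Otx2 at both times, from the strongest (1) to the weakest (x axis). The share without Oc1 is 22.7% in the strongest bin and 50.9% in the weakest.

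Background at the summit, also recovered from fold and p, was at the genome-wide level more often in Otx2-only regions than in regions of all 4 lists. The genome-wide level was itself low, 0.184 reads at 25 min and 0.108 reads at 30 min. A background raised a few times therefore still amounts to very few reads, and its steps are coarse. At 25 min the background equalled the genome-wide level in 895 Otx2-only regions (34.7%, 32.9 to 36.5%), against 520 regions of all 4 lists (22.6%, 20.96 to 24.4%). At 30 min the numbers were 1316 (51.0%, 49.1 to 52.9%) and 939 (40.9%, 38.9 to 42.9%). A background of at least 2 times the genome-wide level was seen at 25 min in 588 Otx2-only regions (22.8%, 21.2 to 24.4%) and in 912 regions of all 4 lists (39.7%, 37.7 to 41.7%). Background enters the p and q by which a peak is called, so it is not independent of how the regions were chosen. Median reads at 25 min were 7 in Otx2-only regions and 10 in regions of all 4 lists. A peak of few reads needs a low background to be called. The part of this in the order above was not tested, nor was the part of background in the missing Oc1 calls. At either time, 26 Otx2-only regions had a background of 10 times the genome-wide level or more.

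The strongest 12 regions, ranked by the smaller −log10 q, had at least 16 reads at 25 min and 17 at 30 min. The first lay on chromosome 5 from 44372594 to 44373095, with 26 reads and a −log10 q of 42.8 at 25 min, and 25 reads and a −log10 q of 35.9 at 30 min. Only 2 of the 5979 regions with Otx2 at both times ranked above it. Its summits lay 43 bases apart, and the nearest Oc1 peak was 5391 bases away. The next, on chromosome 6 from 34619326 to 34619653, had 19 and 20 reads, with summits 34 bases apart. The region on chromosome 13 from 2026597 to 2027054 had 19 reads at both times and summits only 7 bases apart. These 3 regions stood over a background within 1.29 times the genome-wide level.

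Other regions among the 12 also had similar reads at both times. A ranking by the smaller −log10 q requires a strong call at both times, so it favours this. On chromosome 14, from 2393510 to 2394025, and on chromosome 18, from 2986850 to 2987436, both times had 18 reads. The chromosome 18 region was one of the more isolated ones, with 127032 bases to the nearest Oc1 peak. The region on chromosome 4 from 89076034 to 89077355 was 1322 bases long, with folds of 18.6 and 15.4 and summits 2 bases apart. A further chromosome 4 region, from 49626314 to 49626829, had 21 reads at both times over a background raised 2.13 times at 25 min and 1.99 times at 30 min, and another Otx2-only region 8329 bases away. On chromosome 20, from 4181794 to 4182305, and on chromosome 3, from 91245442 to 91245902, both regions had 16 and 17 reads. They differed in their surroundings, with Oc1 peaks 14689 and 160046 bases away.

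The 3 remaining regions also had another Otx2-only region within 10 kb, which makes 4 of the 12. On chromosome 27, from 4297794 to 4298315, 22 reads at both times gave folds of 14.2 at 25 min, over a background raised 3.39 times, and 17.7 at 30 min, over the genome-wide level. Its nearest Otx2-only neighbour was 1299 bases away. The region on chromosome 26 from 2830952 to 2831662 had 21 and 19 reads, the same raised background at 25 min, and a neighbour at 3149 bases. The region on chromosome 24 from 364233 to 364955 had 19 and 17 reads and a neighbour at 6236 bases. Of the 12 regions, 10 had the higher fold at 25 min, 9 had summits within 50 bases, and 8 lay outside chromosomes 1 to 5.

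The 3 weakest regions had raised backgrounds at 1 or both times, given as multiples of the low genome-wide level. The weakest, on chromosome 3 from 95702371 to 95702653, had 13 and 16 reads, with a background raised 23.7 and 13.9 times and folds of 2.61 and 5.81. The region on chromosome Z from 31918881 to 31919148 had 9 reads and a fold of 8.45 at 25 min. At 30 min it had 8 reads and a fold of 3.88, over a background raised 9.28 times. The region on chromosome 9 from 6985004 to 6985249 also had 9 and 8 reads, with backgrounds raised 3.73 and 9.28 times. These 3 regions thus had more reads than the median member at 25 min.

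The median length of Otx2-only regions was 323 bases (interval 316 to 328), within a range of 157 to 1560 bases. In regions of Oc1 at both times without Otx2 the median was 393 bases (389 to 396), and in regions of all 4 lists it was 564 bases (555 to 574), where more peaks are joined. The Otx2 libraries also had shorter read extensions in calling, 157 bases at 25 min and 107 bases at 30 min, against 194 and 200 bases for Oc1, so lengths of the sets cannot be compared as lengths of bound DNA. Within the Otx2 lists, the peaks of Otx2-only regions had median widths of 287 bases at 25 min and 186.5 bases at 30 min, against 250 and 181 bases for all Otx2 peaks. The 30 min peak lay wholly inside the 25 min peak in 1208 regions (46.8%, 44.9 to 48.8%). More than 1 peak of a list was present in 68 regions (2.64%, 2.08 to 3.33%). The longest region, on chromosome Z from 54772733 to 54774292, held 1 peak at 25 min and 2 at 30 min, and its strongest summits lay 770 bases apart.

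The repeat of an Otx2 summit between times was measured within each region. The median distance between the 25 and 30 min summits was 54 bases (51 to 56), and 2475 regions (95.9%, 95.1 to 96.6%) had summits within 200 bases. The peaks were joined because they overlap, and the median region was 323 bases long. A distance within 200 bases is therefore largely set by the choice of the regions. How close summits placed at random in the same peaks would lie was not computed. Within 50 bases lay 1222 regions (47.4%, 45.4 to 49.3%), against 978 of the 2298 regions of all 4 lists (42.6%, 40.6 to 44.6%). The difference was 4.81 percentage points (2.01 to 7.59). Against regions with Oc1 at 1 time, of which 45.0% (42.1 to 48.0%) had summits within 50 bases, it was 2.31 points (-1.21 to 5.81), and the interval includes 0. Longer joined regions leave more room for distant summits, and the part of length in this difference was not tested. The 30 min summit was at the higher coordinate in 1296 of 2567 regions with unequal summits (50.5%, 48.6 to 52.4%), so the shift had no common direction on the chromosome.

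Summits of regions with more reads lay closer together. In regions whose smaller read number was 3 to 5 the median distance was 57 bases (52 to 62, 782 regions), and for 6 to 7 reads it was 56 bases (52 to 60, 963 regions). It was 48.5 bases (42 to 54, 314 regions) for 10 to 14 reads and 33 bases (22 to 49, 64 regions) for 15 reads or more. The intervals of the lowest and the highest read class do not overlap.

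**Figure D3:**
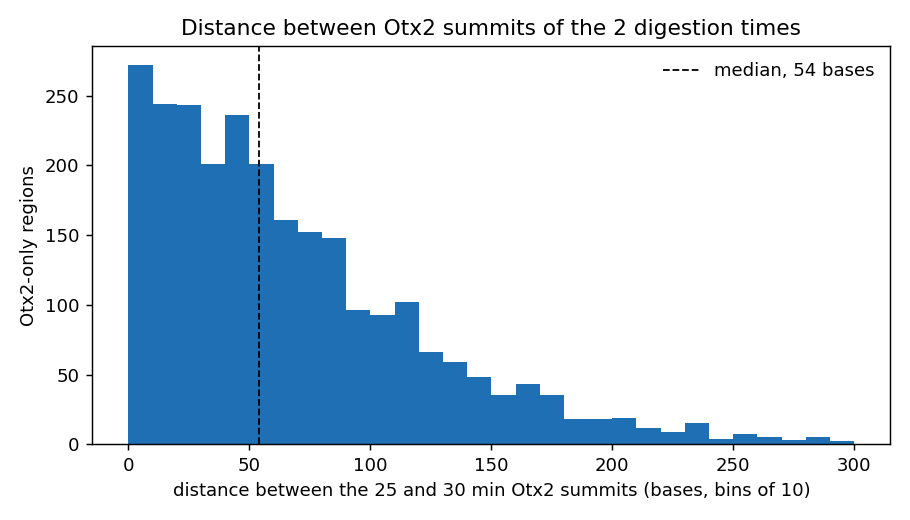
Number of Otx2-only regions (y axis) by the distance between their Otx2 summits at 25 and 30 min (x axis, bases, bins of 10), with the dashed line at the median of 54 bases. Counts decline with distance, and 28 regions with summits more than 300 bases apart are not drawn.

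Position in the genome was not used to choose the regions. The chicken has a few large macrochromosomes and many small microchromosomes, which are known to be gene-dense. Otx2-only regions were found on 29 of the 33 sequences that hold joined regions, and 1101 of them (42.7%, 40.8 to 44.6%) lay on chromosomes 1 to 5, where 49.1% of all joined regions lay. Of the 2400 regions of Oc1 at both times without Otx2, called the Oc1 set below, 1255 (52.3%, 50.3 to 54.3%) lay there, and of the regions of all 4 lists 1082 (47.1%, 45.1 to 49.1%). The share of Otx2-only regions minus that of the Oc1 set was -9.62 percentage points (-12.4 to -6.85), and minus that of the regions of all 4 lists it was -4.41 points (-7.198 to -1.61). Otx2-only regions were thus less often on the largest chromosomes than either set in these libraries, with both intervals below 0. These intervals count regions as independent, although 690 of the 2580 lay within 10 kb of another Otx2-only region, so they may be too narrow.

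The small chromosomes showed the opposite. On chromosomes 21 to 33 lay 363 Otx2-only regions (14.1%, 12.8 to 15.5%), 224 regions of all 4 lists (9.75%, 8.60 to 11.03%) and 178 regions of Oc1 without Otx2 (7.42%, 6.43 to 8.53%). Otx2-only regions exceeded the Oc1 set by 6.65 points (4.95 to 8.36) there and by 3.79 points (1.56 to 6.02) on chromosomes 11 to 20. On chromosomes 6 to 10 the sets differed by 0.293 points (-1.80 to 2.38). Chromosome Z held 99 Otx2-only regions (3.84%, 3.16 to 4.65%), 129 regions of all 4 lists (5.61%, 4.74 to 6.63%) and 119 of the Oc1 set (4.96%, 4.16 to 5.90%).

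**Figure D4:**
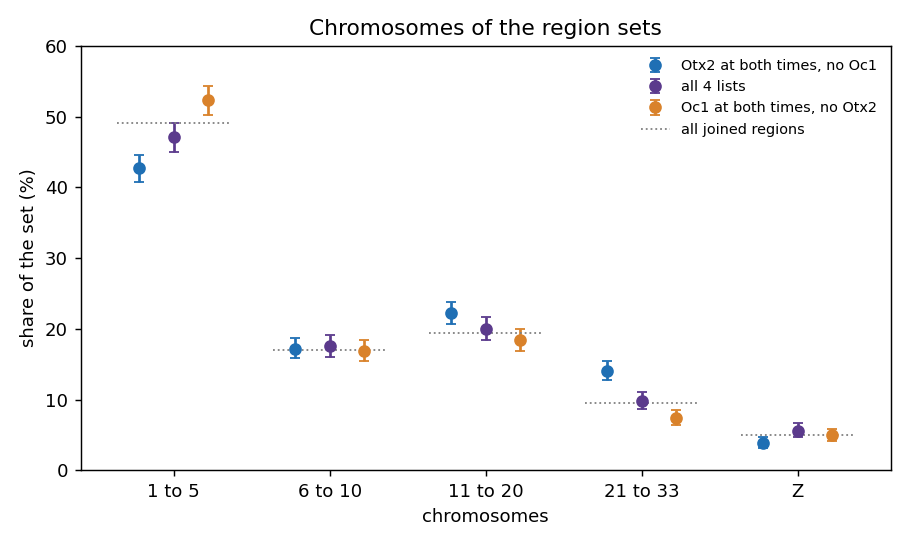
Share of each set (y axis, percent, bars are Wilson intervals) that lies on chromosomes 1 to 5, 6 to 10, 11 to 20, 21 to 33 and Z (x axis), with dotted lines for all joined regions. Otx2-only regions are lowest on chromosomes 1 to 5 at 42.7% and highest on chromosomes 21 to 33 at 14.1%.

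Single chromosomes carried this pattern unevenly. Chromosome 26 held 74 Otx2-only regions and 19 of the Oc1 set, a ratio of 3.89, and chromosome 24 held 66 and 25, a ratio of 2.64. Chromosome 2 stood at the other end, with 208 Otx2-only regions and 302 of the Oc1 set, a ratio of 0.689. Over 31 chromosomes, the interval of the difference in share lay above 0 for 5 (chromosomes 15, 21, 23, 24 and 26) and below 0 for 3 (chromosomes 2, 3 and 4), with no adjustment for the number of chromosomes. Not all small chromosomes followed, since chromosome 22 held 16 Otx2-only regions and 20 of the Oc1 set.

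Regions with a peak in 1 list only, which are no members of either set, had the same order. On chromosomes 1 to 5 lay 47.7% (46.1 to 49.3%) of those seen for Otx2 at 25 min and 44.7% (42.4 to 47.0%) for Otx2 at 30 min. The shares were 55.1% (53.1 to 57.1%) for Oc1 at 25 min and 52.4% (50.7 to 54.1%) for Oc1 at 30 min. The antibody and its library cannot be told apart in this comparison.

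The share of both-time Otx2 regions without Oc1 also changed with chromosome size. It was 40.7% (38.8 to 42.5%) on chromosomes 1 to 5, 42.6% (39.6 to 45.6%) on 6 to 10, 45.9% (43.2 to 48.7%) on 11 to 20 and 51.4% (47.7 to 55.1%) on 21 to 33. It was lowest on chromosome Z, at 36.1% (30.7 to 42.0%). Both patterns, by strength and by chromosome, were present together. In the strongest 3 bins the share without Oc1 was 26.5% (23.4 to 29.8%) on chromosomes 1 to 5 and 41.2% (34.9 to 47.8%) on 21 to 33, and in the weakest 3 bins it was 47.9% (44.6 to 51.3%) and 59.6% (52.5 to 66.3%). On chromosome Z only 7 of 71 strong regions lacked Oc1 (9.86%, 4.86 to 19.0%), against 39 of 87 weak ones (44.8%, 34.8 to 55.3%).

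At 25 min, Otx2-only regions on chromosomes 21 to 33 had a slightly higher median fold and a lower median background than those on 1 to 5. The median fold at 25 min was 6.19 (6.16 to 6.48) on chromosomes 1 to 5 and 6.76 (6.47 to 6.76) on 21 to 33, and these intervals overlap. It was 6.69 (6.16 to 6.76) on 6 to 10 and 6.48 (5.91 to 6.69) on 11 to 20, so it did not rise steadily as chromosomes became smaller. At 30 min the medians were 6.24 on chromosomes 1 to 5 and 6.39 on 21 to 33. The median background at 25 min was 1.12 times the genome-wide level (1.07 to 1.17) on chromosomes 1 to 5. On 21 to 33 it was 1.012 times (1.00 to 1.07), and these intervals meet at the same step of background. Base composition and mappability of the chromosomes were not analysed here, and their part in these shares was not tested.

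Otx2-only regions often had neighbours. Another joined region of any kind lay within 10 kb of 1782 of them (69.1%, 67.3 to 70.8%), against 60.8% of all joined regions, 73.6% (71.7 to 75.3%) of the regions of all 4 lists and 54.4% (52.4 to 56.4%) of the Oc1 set. Another Otx2-only region lay within 10 kb of 690 (26.7%, 25.1 to 28.5%). Within the Oc1 set of nearly the same size, 343 regions (14.3%, 12.9 to 15.7%) had such a neighbour of their own set, a difference of 12.5 points (10.2 to 14.7). Within the regions of all 4 lists the number was 604 (26.3%, 24.5 to 28.1%), and the difference of 0.460 points has an interval that includes 0 (-2.02 to 2.94). This difference changed with the distance used. It was 1.51 points (0.165 to 2.85) within 1000 bases, 1.59 points (-0.0974 to 3.27) within 2000 bases and 6.06 points (3.25 to 8.86) within 50 kb. On chromosome Z the order was reversed, with -8.67 points (-16.5 to -0.382) within 1000 bases and -18.7 points (-30.8 to -5.62) within 50 kb. The median distance to the nearest region of the same set was 41889 bases (37154 to 45190) for Otx2-only regions and 94769 bases (91475 to 101562) for the Oc1 set.

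The difference between the Otx2 and Oc1 sets was also present within chromosome groups, with the interval above 0 in each. Being a neighbour is mutual, so regions with a neighbour of their set come at least in pairs. The intervals count single regions and are therefore too narrow, here and for the whole sets above. On chromosome Z the difference rests on only 24 of 99 Otx2-only regions and 6 of 119 regions of the Oc1 set. On chromosomes 1 to 5, 238 of 1101 Otx2-only regions had a neighbour of their set within 10 kb (21.6%, 19.3 to 24.1%), against 155 of 1255 in the Oc1 set (12.4%, 10.6 to 14.3%). The difference there was 9.27 points (6.24 to 12.3). On chromosomes 11 to 33 it was 15.2 points (10.8 to 19.4). It depended on how the sets were drawn: with a −log10 q of at least 5 required of Otx2 peaks alone, 1248 Otx2-only regions had a share of 18.6% and 3237 regions of the Oc1 set one of 18.4%, a difference of 0.239 points (-2.24 to 2.84). With the same threshold for all 4 lists, which left 1689 and 1546 regions, the shares were 22.4% and 11.5%.

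**Figure D5:**
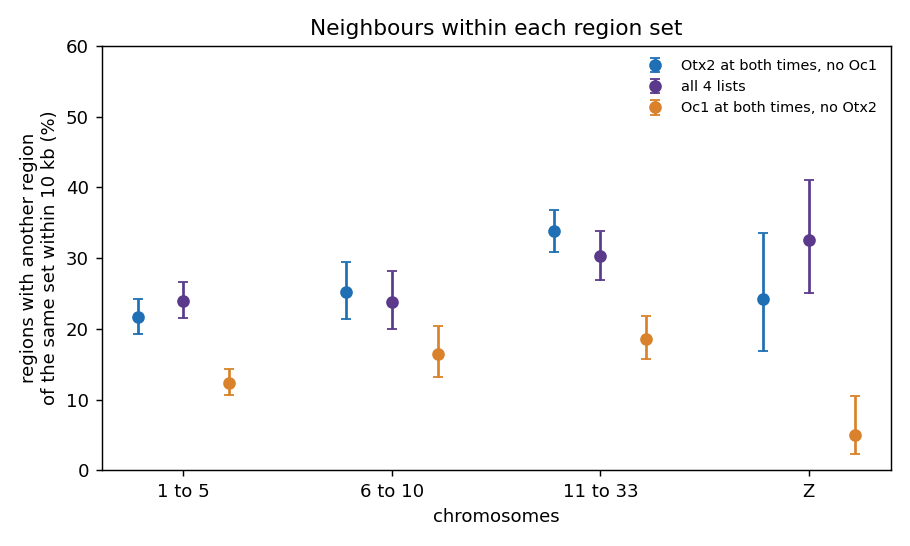
Share of regions with another region of the same set within 10 kb (y axis, percent, bars are Wilson intervals) on chromosomes 1 to 5, 6 to 10, 11 to 33 and Z (x axis). Otx2-only regions stand at 21.6% on chromosomes 1 to 5, above the 12.4% of the Oc1 set.

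Joined at gaps of at most 10 kb, the 690 regions with a neighbour formed 303 groups, of which 245 were pairs, 40 held 3 regions and 13 held 4. Groups of 5 or more numbered 5, and no Oc1 peak lay within any of these 5. The members have no Oc1 peak by the rule, so only the stretches between them could have held one. How often such stretches hold an Oc1 peak in smaller groups or elsewhere was not computed. The largest group, on chromosome 33 from 489741 to 505076, held 7 Otx2-only regions among 10 joined regions. Their folds lay between 5.02 and 9.29 at 25 min and between 5.001 and 10.8 at 30 min. Their reads lay between 5 and 10 at 25 min and between 6 and 13 at 30 min. The background was within 1.07 times the genome-wide level in 7 of 7 at 25 min. At 30 min it was at that level in 6 of 7, and 1.99 times as high in the region from 504709 to 505076. The nearest Oc1 peak was 72666 bases or more away.

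A group of 6 on chromosome 1, from 152858929 to 152873372, was of another kind. Its regions had 21 to 46 reads at 25 min and 18 to 49 at 30 min, far above the median member, yet folds of 2.15 to 5.04 at 25 min and 3.03 to 6.53 at 30 min. The background there was raised 20.4 to 102 times at 25 min and 18.6 to 121 times at 30 min. No region of the other 4 groups had so high a background.

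The 3 groups of 5 stood over backgrounds of at most 6.79 times the genome-wide level. On chromosome 11, from 18791952 to 18804769, 2 strong regions stood beside weaker ones. The region from 18791952 to 18792914 had 18 and 16 reads, and that from 18796814 to 18797225 had 20 and 15 reads. The other members of the group had 4 to 6 reads at 25 min and 5 to 7 at 30 min. On chromosome 5, from 55960079 to 55977293, reads lay between 6 and 15 at 25 min and between 11 and 17 at 30 min. On chromosome 8, from 5971615 to 5980737, they lay between 7 and 16 at 25 min and between 5 and 11 at 30 min, with 5 Otx2-only regions within 9123 bases.

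Oc1 peaks were not far from most Otx2-only regions. The median distance to the nearest Oc1 peak was 14165.5 bases (13006 to 15407), and 2050 regions (79.5%, 77.9 to 81.0%) had one within 50 kb. Within 1 kb lay 212 regions (8.22%, 7.22 to 9.34%), and within 200 bases 35 (1.36%, 0.977 to 1.88%). For the Oc1 set and its nearest Otx2 peak, 176 of 2400 (7.33%, 6.36 to 8.45%) lay within 1 kb, and the intervals overlap. At longer distances they did not. Within 5 kb lay 28.1% (26.4 to 29.9%) of Otx2-only regions and 23.8% (22.1 to 25.5%) of the Oc1 set, and within 10 kb 41.7% (39.8 to 43.6%) and 34.7% (32.8 to 36.6%). Within 50 kb lay 71.1% (69.2 to 72.9%) of the Oc1 set, below the share of Otx2-only regions given above. The sets also differ in their chromosomes, whose part in these distances was not tested. The most distant member, on chromosome 1 from 161434596 to 161434836, had 455741 bases to the nearest Oc1 peak and folds of 5.67 and 5.70.

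Distance to Oc1 went with little difference in Otx2 strength. The 212 regions with an Oc1 peak within 1 kb had a median fold of 6.19 (5.91 to 6.75) at 25 min, and the 530 regions with none within 50 kb had one of 6.19 (5.91 to 6.69). At 30 min the medians were 6.13 (5.70 to 6.24) and 6.24 (6.24 to 6.52). The intervals of these medians overlap or touch at both times. Regions of all 4 lists were near more often than those of the Oc1 set, which is of similar size: 384 Otx2-only regions (14.9%, 13.6 to 16.3%) lay within 10 kb of a region of all 4 lists, and 153 (5.93%, 5.08 to 6.91%) within 10 kb of a region of the Oc1 set.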

How the data were processed

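The authors deposited 1 list of narrow peaks for each Otx2 and Oc1 library, without a header. The submitters' processing notes name Bowtie2, SAMtools, deepTools, MACS2 and the build galGal5. Their versions and settings, the control and the filters are not given in the sources used here. The deposited columns hold positions, the fold enrichment at the summit (a ratio), −log10 of p and of q, and a score, which is −log10 q times 10 without its decimals. Folds and q values are printed as deposited by the authors. For Otx2 the list of 25 min held 11495 peaks and that of 30 min 9044, and for Oc1 the numbers were 9777 and 10664. Each list's 1 mitochondrial peak was left out.

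Depth is not listed. Summit reads and local background were recovered from fold, taken as (scaled reads + 1)/(background + 1), and the Poisson p of the scaled reads, to within 0.002 in −log10 p. The scale was 1 for all lists except Otx2 at 30 min. There it was 0.845, the value tried that recovered the most of the first peaks of that list. The recovery succeeded for all but 1 peak in each Oc1 list. The smallest fitting read number was taken. The most common background of a list was taken as its genome-wide level, and the shortest peak as the read extension.

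Regions, shares with Wilson intervals, differences with Newcombe intervals and medians with order-statistic intervals were computed in Python 3.11.15 with pandas 2.3.3 and SciPy 1.17.1, and tested on simulated lists. The 12 strongest, 3 weakest and longest regions were named by rule. The members, rules and lists were chosen with earlier results of these data known. The regions at the edge of the set, the most distant region, and the groups of 5 or more were chosen after their values were seen.

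The gene table at hand is for GRCg7b, another build, and was not used. Planned values on start sites, motifs and base composition were not run.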

Additional observations from a re-analysis of the deposited data

How the results depend on the processing

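Of 50 recomputed values (10 results under 5 alternatives), 32 stayed within their interval or within 1.5 times the count, and 18 did not. Only the differences between sets could change sign, and 0 of them did. Leaving out regions with a background of at least 5 times the genome-wide level, and the alternatives for both differences between sets, were added after the data were seen. The threshold moved most values. With a −log10 q of at least 5 in all lists, 1689 Otx2-only regions remained by number, 50.9% of both-time Otx2 regions lacked Oc1, median folds were 7.60 at 25 min and 7.70 at 30 min, 22.4% had an Otx2-only neighbour within 10 kb, and the median distance to Oc1 was 23337 bases. With that threshold for Otx2 alone the values were 1248 regions, 37.6%, folds of 7.53 and 7.45, and 18.6%. The difference in neighbours from the Oc1 set was then 0.239 points, in sets of 1248 and 3237 regions. Requiring no Oc1 peak within 1000 bases gave 39.6% without Oc1, 25% with a neighbour and 16745 bases to Oc1. That setting takes out the members nearest to Oc1, so its lower share without Oc1 and its longer distance follow from the setting itself. The higher folds under the threshold likewise follow largely from leaving out weaker peaks. These values are still counted among the 18. Leaving out high backgrounds gave 46.1% without Oc1 and 24.5% with a neighbour. Joining only peaks that share 50% of the shorter one gave a median summit distance of 50.5 bases. The share of Otx2-only regions on chromosomes 1 to 5 lay between 40.9% and 43.0% in all 5, and its difference from the Oc1 set between -11.2 and -9.85 points. No paired analysis was possible because the labels number no replicates and each antibody has 1 library per digestion time, which also left no replicate to leave out; the antibodies share only the time, and their values within each time stand side by side above. Alternatives on start sites, motifs and base composition were not run. Few reads per peak limit all calls, and a missing Oc1 peak does not show that Oc1 was absent.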
